A study of Mus musculus with 6 samples.

Results

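The 2 arms of the miR-22 hairpin, mmu-miR-22-3p and mmu-miR-22-5p, were described in livers of corn oil-treated and CCl4-treated mice. They were taken by name from the 1247 mouse miRNAs on the array, and each was measured by 2 probes. The pair was chosen from readouts of these same arrays, namely the total signals, the probe signals, the detection flags and the ratio of the arms between the groups. All values of the arms are therefore given as a description and without a test. The CCl4 group consisted of 3 male C57BL/6 mice that were injected with carbon tetrachloride, which damages hepatocytes, dissolved in corn oil at 0.6 mL/kg. The control group consisted of 3 male C57BL/6 mice given corn oil alone. Mice of both groups were 7 weeks old at the first intraperitoneal injection and were injected 2 times per week over 10 weeks. Total RNA of each liver was labeled with Cy3, a single fluorescent dye, and hybridized to its own array.

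A miRNA hairpin is cut from a longer transcript and then opened into a short duplex, whose strands are named by the end of the hairpin they come from. Usually one strand is loaded into Argonaute and kept, and the other is degraded, so the arms of a hairpin can differ widely in level although they are made together. miR-22-3p is a conserved miRNA, widely expressed and abundant in liver and muscle, and is known to repress Hdac4, Sirt1 and Esr1, among others. miR-22-5p is its partner strand, about which less is known.

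The mature sequences are shown because the arms differ in seed and so would recognize different target sites. They came from RefSeq (GRCm38.p6), which held both arms. Capitals mark the seed, bases 2 to 8 counted from the 5′ end.
mmu-miR-22-5p: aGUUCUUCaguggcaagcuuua
mmu-miR-22-3p: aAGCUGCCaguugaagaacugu
Among the 1738 mature mouse miRNAs of the table, each seed occurred in 1 miRNA only, so neither arm shares its seed with another member of this reference. The complement of the miR-22-5p seed lies at bases 13 to 19 of miR-22-3p, and the longest perfectly paired run of the arms covers 9 bases, 1 to 9 of miR-22-5p and 12 to 20 of miR-22-3p. The hairpin below shows where the arms lie, with both in capitals, miR-22-5p at bases 19 to 40 and miR-22-3p at bases 57 to 78.
Mir22 hairpin: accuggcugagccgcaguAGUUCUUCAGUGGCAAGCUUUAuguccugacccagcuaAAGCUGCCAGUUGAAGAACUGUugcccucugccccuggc
It spans chr11:75463716-75463810 on the plus strand (GRCm38.p6), inside the span of Mir22hg, the long noncoding RNA that serves as its host transcript.

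Across the arrays, 186 to 193 miRNAs were detected in corn oil-treated livers and 227 to 334 in CCl4-treated livers. CCl4 replicate 3 stood apart. Its Spearman rank correlation with the other CCl4 arrays was 0.860 and 0.856, compared to 0.979 between those 2. miR-122-5p, the main hepatocyte miRNA and the check of the tissue, had a total signal of 2158 on this array and of 13110 to 18345 on the others. All 6 arrays lay on 1 slide, the CCl4 arrays in row 1 and the corn oil arrays in row 2, so slide row and treatment cannot be told apart. Whole liver was measured, and fewer cells of a type cannot be told apart from less RNA per cell.

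Both arms were detected on all 6 arrays, and no spot was saturated. The total signal, which the scanner software combines from the background-subtracted spots of all probes of a miRNA, was 1677, 1657 and 1686 for miR-22-3p on corn oil replicates 1, 2 and 3. On CCl4 replicates 1, 2 and 3 it was 1446, 1537 and 3238. The corn oil arrays lay close together, CCl4 replicates 1 and 2 lay below all of them and CCl4 replicate 3 above, so that the groups overlapped. For miR-22-5p the total signal was 20.6, 19.8 and 21.1 in corn oil livers and 17.8, 18.5 and 37.2 in CCl4 livers. The order of the groups was the same as for miR-22-3p, with CCl4 replicates 1 and 2 below and CCl4 replicate 3 above the corn oil range. Before any normalization between arrays, the mean log2 change with CCl4 was 0.21 for miR-22-3p and 0.17 for miR-22-5p, against SDs of 0.65 and 0.60 in the CCl4 group (n = 3 livers per group). The sign rested on CCl4 replicate 3. Without it, the changes were -0.17 and -0.17.

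The ratio of the arms was nearly the same in every liver. The total signal of miR-22-3p over that of miR-22-5p was 81.5, 83.6 and 80.0 in corn oil livers and 81.0, 83.3 and 87.1 in CCl4 livers. CCl4 replicate 3 had the highest ratio and the other CCl4 arrays lay within the corn oil range. The log2 ratio averaged 6.35 ± 0.03 with corn oil and 6.39 ± 0.05 with CCl4 (SD, n = 3 livers per group). The difference of 0.04 was smaller than the SD of the CCl4 group, and it was 0.01 without CCl4 replicate 3. Since each arm has its own probes, the level of this ratio is not a ratio of molecules, and only its change between arrays can be read.

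**Figure D1:**
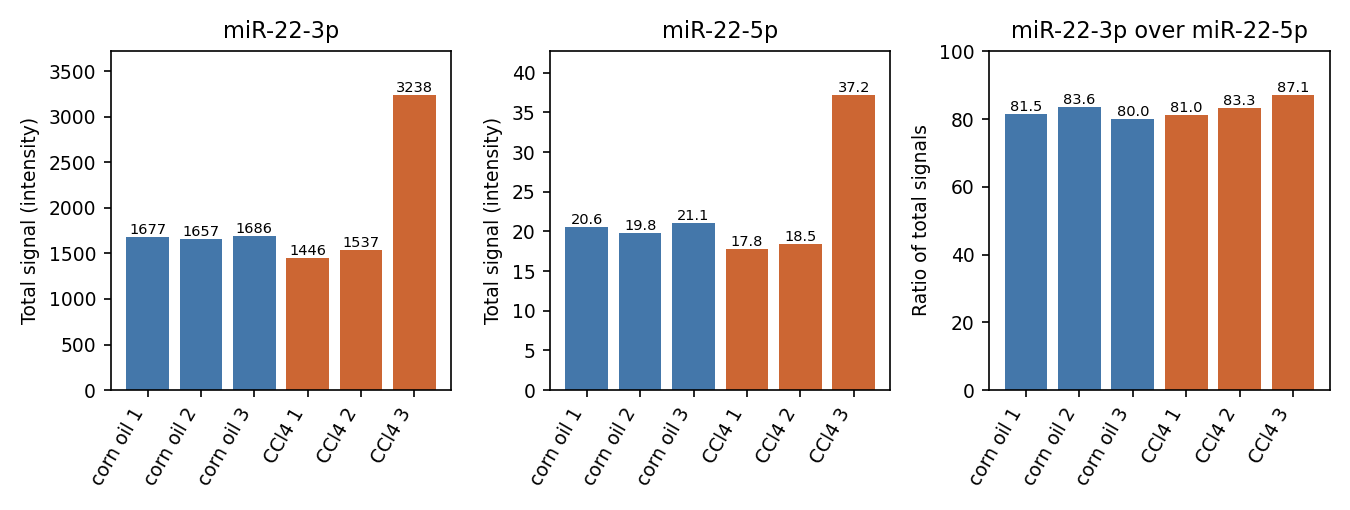
Bars show the total signal (intensity, linear scale from 0) of miR-22-3p and miR-22-5p and the ratio of the arms on each of the 6 arrays, corn oil in blue and CCl4 in orange. Signals of both arms were highest on CCl4 replicate 3, while the ratio remained between 80.0 and 87.1 on every array.

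The probes of each arm moved together. For miR-22-3p, the total signal of probe A_54_P1309 was 358, 347 and 363 in corn oil livers and 301, 319 and 681 in CCl4 livers. Probe A_54_P1310 gave 1319, 1310 and 1323 in corn oil livers and 1145, 1217 and 2557 in CCl4 livers. The brighter probe was 3.64 to 3.81 times the dimmer one on all arrays. For miR-22-5p, probe A_54_P3450 gave 7.18, 7.42 and 8.24 in corn oil livers and 6.92, 6.67 and 13.9 in CCl4 livers. Probe A_54_P3451 gave 13.4, 12.4 and 12.8 in corn oil livers and 10.9, 11.8 and 23.3 in CCl4 livers. Here the quotient of the probes varied more, from 1.56 to 1.87. Without normalization, the mean log2 changes of the 4 probes lay between 0.16 and 0.21 with all arrays, and between -0.20 and -0.16 without CCl4 replicate 3.

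The arms differed in how far they stood above background. Each probe had 20 spots per array. All 20 spots of both miR-22-3p probes and of A_54_P3451 were well above background on every array, whereas for A_54_P3450 the number was 16, 19 and 17 in corn oil livers and 15, 15 and 20 in CCl4 livers. Over both probes of miR-22-5p, 87.5% to 100% of the spots were well above background. The coefficient of variation among spots of a probe, a technical spread within an array, was 2.51% to 6.43% for miR-22-3p and 10.1% to 21.7% for miR-22-5p. Spots of miR-22-5p thus scattered more, relative to their mean, than those of miR-22-3p.

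Part of the excess of CCl4 replicate 3 lay in the step from spots to totals. The total signal of a probe was 0.282 to 0.283 times its median spot signal on the other 5 arrays (median over probes with all spots well above background) and 0.385 times on CCl4 replicate 3, a factor 1.36 times larger. When the median spot signals were summed instead, miR-22-3p on this array lay 0.51 (log2) above the corn oil mean, compared to 0.95 with total signals. miR-22-5p lay 0.45 above it, compared to 0.86. With summed spot signals the arm ratio changed by 0.02 on the log2 scale, compared to 0.04 with total signals. Why the factor differed was not tested.

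Relative to corn oil, both arms changed by less than the median miRNA on each CCl4 array. Relative to the corn oil mean, the median log2 total signal of the 166 miRNAs detected on all 6 arrays was 0.55, 0.35 and 2.05 on CCl4 replicates 1, 2 and 3. The same quantity was -0.21, -0.12 and 0.95 for miR-22-3p and -0.20, -0.15 and 0.86 for miR-22-5p. Measured against the median miRNA of its own array, miR-22-3p therefore lay at a log2 difference of -0.76, -0.47 and -1.10, and miR-22-5p at -0.75, -0.50 and -1.19. All 3 CCl4 arrays lay below the corn oil arrays on this scale, which for both arms ranged from -0.05 to 0.09. How many of the 166 miRNAs separated in the same way on this scale was not counted. Nothing is read from the separation for the arms, since they were chosen from this contrast. As a share of the summed signal of the detected miRNAs, miR-22-3p took 0.946%, 0.976% and 1.00% in corn oil livers and 0.815%, 0.881% and 1.02% in CCl4 livers, so by this measure the groups overlapped through CCl4 replicate 3.

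**Figure D2:**
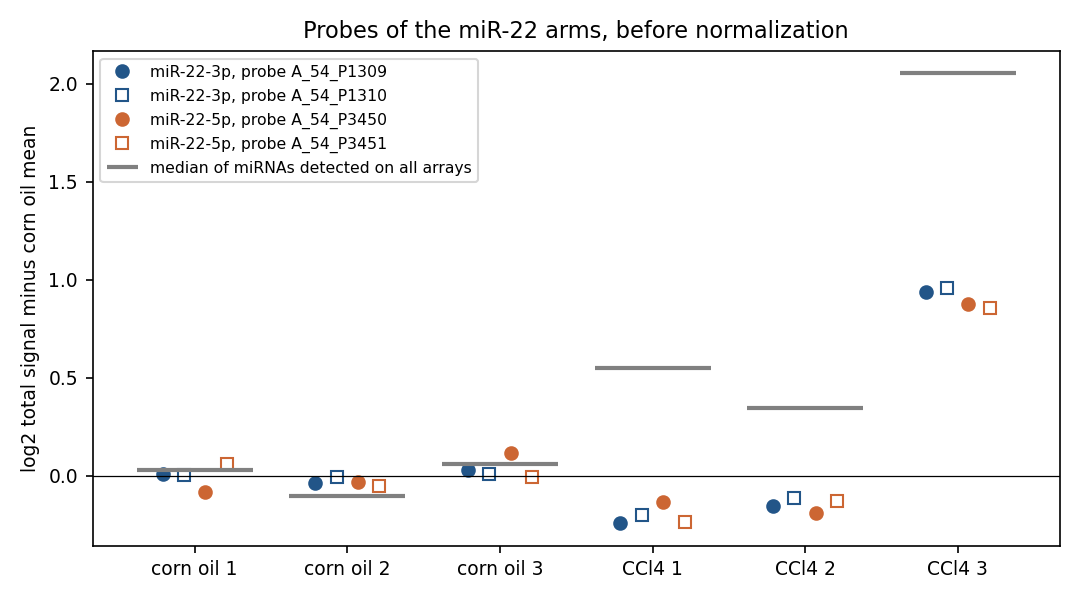
Points give the log2 total signal of each of the 4 probes on each array minus the corn oil mean of that probe, and grey lines give the median of the same quantity over 166 miRNAs. On the CCl4 arrays all 4 probes lay together and below the grey line, which stood at 0.55, 0.35 and 2.05.

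The study normalized the arrays by quantiles, a step that gives each array the same set of values and keeps only the rank of a miRNA. After this step over the 166 miRNAs on the log2 scale, miR-22-3p was 11.06 on each corn oil array and 10.82, 10.82 and 10.41 on the CCl4 arrays. Its change in the limma fit was -0.38 (standard error 0.16, n = 3 livers per group). The SD of 0 in the corn oil group reflects that miR-22-3p held rank 7 on all of these arrays. miR-22-5p was 5.01, 4.93 and 5.05 in corn oil livers and 3.89, 4.21 and 3.78 in CCl4 livers, with a change of -1.03 (standard error 0.16). The size of this change depended on the filter and the background step, at -0.57 with only miRNAs that had over 50% of their spots well above background, -0.33 after normexp background correction and -1.67 when normalization preceded the filter. The CCl4 values lay below the corn oil values without overlap for both arms, as they did for 41 of the 166 miRNAs, or 24.7%. Nothing is read from this count for the arms, since they were chosen from this contrast. In the authors' deposited values, which are quantile normalized over 111 miRNAs, miR-22-3p was 2545 on each corn oil array and 2103, 2103 and 1499 on the CCl4 arrays. miR-22-5p is not among these 111 miRNAs.

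Quantile normalization of the total signals moved the arms apart. After it, the log2 difference of the arms averaged 6.07 ± 0.06 with corn oil and 6.72 ± 0.18 with CCl4 (SD, n = 3 livers per group). This was a change of 0.65, compared to 0.04 before it. The gap depended on the filter and the background step. With only miRNAs that had over 50% of their spots well above background, miR-22-3p changed by -0.38 and miR-22-5p by -0.57. After normexp background correction and quantile normalization the order was reversed, at -0.53 for miR-22-3p and -0.33 for miR-22-5p. The ranks of the arms moved unequally. Counted from the brightest of the 166 miRNAs, miR-22-3p held rank 7 in corn oil livers and 8, 8 and 11 in CCl4 livers, while miR-22-5p held ranks 101, 104 and 99 in corn oil livers and 134, 128 and 138 in CCl4 livers. There were 22 miRNAs below miR-22-5p on all corn oil arrays and above it on all CCl4 arrays, and 0 that moved the other way. For miR-22-3p both counts were 0. Such counts were not made for other miRNAs of similar rank. The miRNAs that passed miR-22-5p included miR-143-3p, miR-199a-5p and miR-199b-5p, which are known from mesenchymal cells, miR-146a-5p, known from immune cells, and miR-574-5p. In this order their changes after quantile normalization were 0.68, 1.34, 2.28, 0.06 and 3.41. Others of the 22 fell, though less than miR-22-5p (-1.03), such as miR-690 (-0.36) and miR-423-5p (-0.27). These names were chosen after their values were seen.

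With each array scaled by its 75th percentile, a single factor per array, the arms changed alike, by -0.95 (standard error 0.23) for miR-22-3p and -0.98 (standard error 0.23) for miR-22-5p. For miR-22-3p this was a much larger change than after quantile normalization, and for miR-22-5p a similar one. Leaving out any 1 array, with quantile normalization, kept the change of miR-22-3p between -0.49 and -0.23 and that of miR-22-5p between -1.14 and -0.92. Without CCl4 replicate 3, the values were -0.23 and -0.92.

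**Figure D3:**
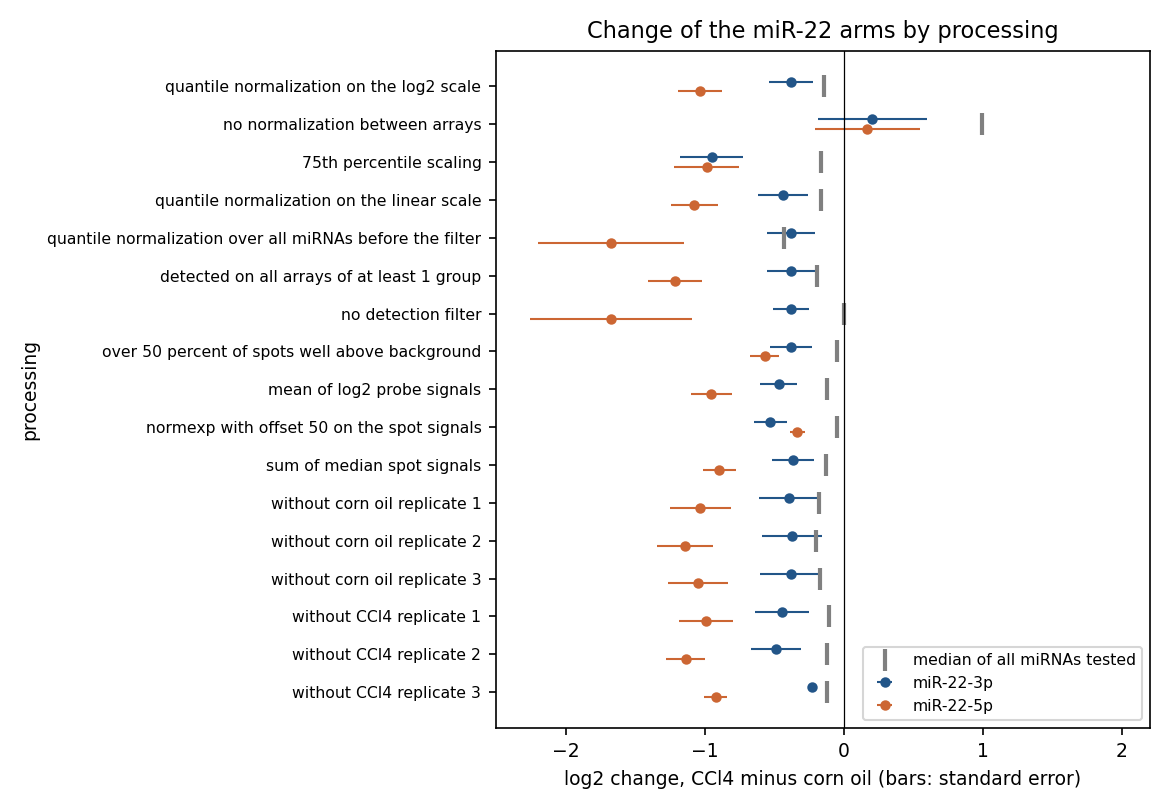
Points give the log2 change, CCl4 minus corn oil, of miR-22-3p (blue) and miR-22-5p (orange) under each processing, with bars for the standard error of the limma fit and grey marks for the median change of all miRNAs tested. The arms coincide with 75th percentile scaling (-0.95 and -0.98) and without normalization (0.21 and 0.17), and lie apart after quantile normalization of total signals (-0.38 and -1.03).

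To place this ratio among others, all hairpins whose 3p and 5p arms were both detected on all 6 arrays were compared, 10 in number. With total signals as scanned, the change of the arm ratio for miR-22 had place 3 of the 10 from the smallest size, at 0.04, where the median size was 0.09. The change was highest for miR-652 (2.14), followed by miR-378a (0.35) and miR-126 (0.09), and lowest for miR-1839 (-0.98), followed by miR-21a (-0.26) and miR-140 (-0.09), all as log2 changes of the mean with no test. The value of miR-652 varied by an SD of 1.65 among the CCl4 arrays and was 1.19 without CCl4 replicate 3. After quantile normalization miR-22 had place 8 of the 10, and place 9 when normalization preceded the filter. Without CCl4 replicate 3, 13 hairpins could be compared and miR-22 had place 3 again, at 0.01.

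**Figure D4:**
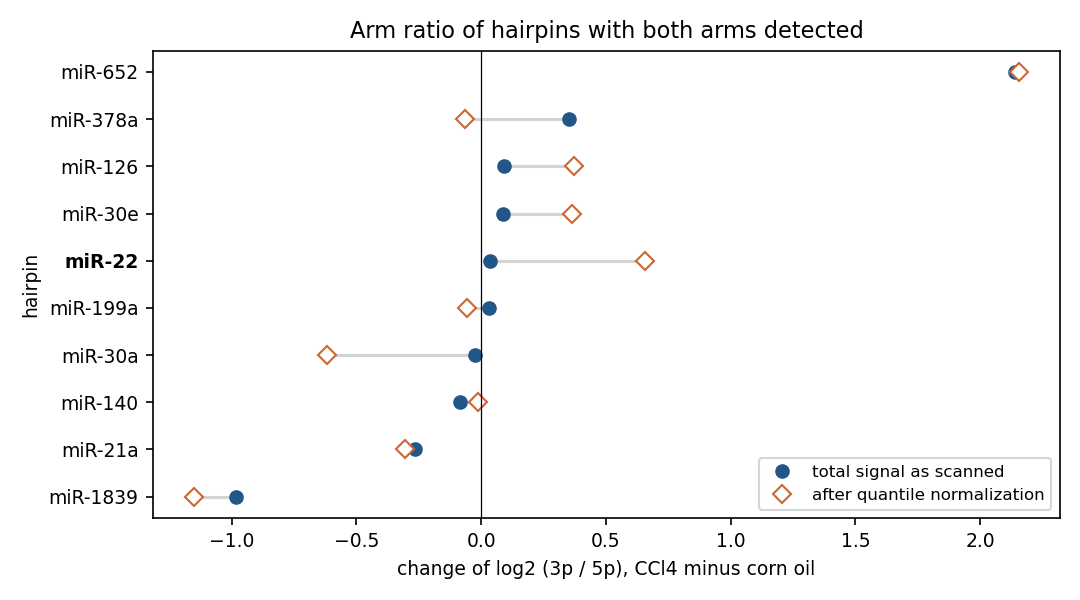
For each of 10 hairpins, the change of the log2 ratio of the 3p over the 5p arm (CCl4 minus corn oil) is shown for total signals as scanned (filled circles) and after quantile normalization (open diamonds). The value for miR-22 lies at 0.04 before and at 0.65 after normalization, while that of miR-652 lies at 2.14 and 2.15.

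The profiles of the arms over the arrays were also set beside those of the other 165 miRNAs, by the Pearson correlation of quantile-normalized log2 signals over the 6 arrays. The arrays share a slide and the correlations carry no p. Most like miR-22-3p were miR-101b-3p (r = 0.998), miR-3968 (0.995), miR-6368 (0.989), miR-1904 (0.980) and miR-92a-3p (0.977). The correlation does not reflect the size of a change. The log2 changes of these 5 were -1.82, -0.75, -0.97, -0.75 and -0.76, all larger falls than the -0.38 of miR-22-3p. Normalized miR-22-3p was equal on all corn oil arrays and also on CCl4 replicates 1 and 2, so r rests on few distinct values. Most like miR-22-5p were miR-203-3p (r = 0.991), miR-378a-3p and miR-378b (both 0.987), miR-15a-5p (0.982) and miR-202-3p (0.981). The arms correlated with each other at 0.889, which placed miR-22-5p at position 28 for miR-22-3p and miR-22-3p at position 19 for miR-22-5p. These neighbors depended on the normalization. With 75th percentile scaling, 0 of the 5 named for miR-22-3p and 3 of the 5 named for miR-22-5p remained among the 5 nearest, and each arm was the most similar of all miRNAs to the other (r = 0.998).

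Markers of liver cell types were read beside the arms. In the limma fit over the 166 miRNAs, 20 (12%) passed the call, which asked for a fold change over 2 and a limma p under 0.05 after Benjamini-Hochberg adjustment. Of these, 12 were higher and 8 lower with CCl4, compared to 18 and 0 without normalization. The number of calls was 7, 7 and 6 without corn oil replicate 1, 2 or 3, and 5, 21 and 28 without CCl4 replicate 1, 2 or 3. Of the hepatocyte list (miR-122-5p, miR-192-5p, miR-194-5p, miR-148a-3p, miR-101a-3p, miR-101b-3p and miR-30a-5p), 0 of 7 were called and 2 had an unadjusted p under 0.05, with a median change of -1.49 beside -0.14 for all miRNAs. Without CCl4 replicate 3 this median was -0.57 and 1 member was called. The brightest members, miR-122-5p (-1.49), miR-192-5p (-1.98) and miR-194-5p (-1.97), had SDs of 2.57, 2.50 and 2.27 in the CCl4 group. The summed total signal of this list was 19578 to 21526 in corn oil livers and 15603, 18407 and 4664 in CCl4 livers. Of the mesenchymal list, 4 of 7 were tested and 2 were called, both higher, namely miR-199a-5p (1.34, limma adjusted p = 0.032) and miR-199b-5p (2.28, adjusted p = 0.016), which are known from stellate cells and fibroblasts. The summed signal of the mesenchymal list was 67.2 to 109 in corn oil livers and 643, 255 and 1236 in CCl4 livers. limma called 0 members of any list without corn oil replicate 1, 2 or 3 or without CCl4 replicate 1, where calls over all miRNAs also fell to between 5 and 7. It called 3 without CCl4 replicate 2 and 4 without CCl4 replicate 3, where the changes of miR-199a-5p and miR-199b-5p were 1.36 and 2.09. Of the immune list 0 of 4 tested members were called, with sums of 101 to 119 in corn oil livers and 429 to 694 in CCl4 livers. Only miR-342-3p had an unadjusted p under 0.05. It also passed the adjusted threshold (limma adjusted p = 0.014) and was not called because its change of 0.85 was below 2-fold. The red cell list (0 of 2 called, 0 at an unadjusted p under 0.05) had sums of 466 to 754 in corn oil livers and 730, 315 and 2144 in CCl4 livers. For the endothelial list (0 of 2 called, 0 at an unadjusted p under 0.05) the sums were 563 to 677 in corn oil livers and 824, 821 and 3732 in CCl4 livers. All these sums were taken before normalization, and CCl4 replicate 3 had the highest of both lists. After quantile normalization the median change was -0.55 for the red cell list and 0.13 for the endothelial list. It was 1.31 for the mesenchymal list and 0.69 for the immune list. The part of these cell types in the values of miR-22 was not tested.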

How the data were processed

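Total RNA of 6 livers was measured on 1-color arrays, with groups taken from the sample labels. The authors deposited scanner files extracted with Agilent Feature Extraction 11.0.1.1, which hold linear intensities corrected for background only, and a table of quantile-normalized intensities of 111 miRNAs. Control spots were left out. The methods of the study filtered on detection and normalized by quantiles. Here miRNAs flagged as detected on every array were kept, which left 166, and log2 total signals were normalized. The deposited table differs in its filter, and its change of miR-22-3p (-0.44) equals that with linear-scale normalization. Treatment was then tested with limma 3.58.1 under R 4.3.3. The arm ratio was taken within each array before normalization. Other steps used pandas 2.3.3, numpy 2.4.6 and matplotlib 3.10.9 in Python 3.11.15, and the fit was tested on simulated data. The members and the lists were chosen with earlier results of these data known. A further list of miRNAs is not reported here, though the counts of called list members include it. The text names the arms and their probes, called list members and up to 3 of each list by signal, the 5 miRNAs most like each arm, and the 3 hairpins at each end of the arm ratio changes. Outside this rule, all hepatocyte markers are listed, and miR-342-3p and miRNAs that passed miR-22-5p in rank were chosen after their values were seen. On the array, miR-142a and miR-126a are named miR-142 and miR-126. Alternatives covered normalization, detection filter, signal, background correction, the deposited values, the replicate number and each array left out. Probe sequences were not used here. Labels give 1 liver per array, and the number of arrays, 3 per group, limits the precision.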

Additional observations from a re-analysis of the deposited data

How the results depend on the processing

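The direction of the arms depended on the normalization. Without normalization between arrays the change was 0.21 for miR-22-3p and 0.17 for miR-22-5p, and -0.17 for either arm without CCl4 replicate 3. With 75th percentile scaling miR-22-3p changed by -0.95. For miR-22-5p the change was -1.67 when quantile normalization preceded the filter and also with no detection filter, -1.22 when detection throughout 1 group sufficed, -0.57 with over 50% of spots well above background on all arrays (113 miRNAs) and -0.33 after normexp background correction, whose offset of 50 compresses dim signals. The other alternatives kept both changes within 1 SD of the reported ones. The table of deposited values does not hold miR-22-5p, so it was used for miR-22-3p alone. The arm ratio changed by 0.64 with quantile normalization on the linear scale, 0.65 on the log2 scale (chosen after seeing the data, as was the sum of median spot signals) and 1.29 with quantile normalization before the filter, and otherwise by 0.06 or less. In all these other settings the ratio was taken from signals that were not quantile normalized. Scaling of an array, the replicate block and the detection filters therefore could not change it. The place of the ratio among the 10 hairpins was 7, 8 and 9 with the 3 quantile settings and 1 after normexp. It was 1 to 4 with an array left out. It was 4 of 19 when detection throughout 1 group sufficed and 212 of 422 with no detection filter. In these last settings undetected signals were set to the lowest detected signal of their array. Place 212 is therefore not a place among measured ratios alone. The mean change of the probes was -0.98, -0.94, -0.97 and -0.99 with 75th percentile scaling and -0.94, -0.66, -0.96 and -1.01 with quantile normalization on the linear scale, in the order A_54_P1309, A_54_P1310, A_54_P3450 and A_54_P3451. For the quantile values, each probe was placed on its array's curve of miRNA totals by linear interpolation, as if it were a miRNA of that signal. They are therefore not parts of the change of an arm, which was -0.44 for miR-22-3p in this setting. Without normalization, the same probes gave -0.20, -0.16, -0.16 and -0.18 without CCl4 replicate 3, the lowest values with an array left out, and the highest such values were 0.39, 0.42, 0.37 and 0.36.

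Of the 5 miRNAs most like miR-22-3p, 0 remained without normalization and 0 with 75th percentile scaling, and 1 to 4 with an array left out. Of those most like miR-22-5p, 0 and 3 remained, and 0 to 5. The number of called miRNAs was 32 when detection throughout 1 group sufficed, 6 without filter, 7 with over 50% of spots, 4 after normexp, 12 in the deposited values and 5 to 28 with an array left out. The called list members numbered 7 without normalization, 4 with 75th percentile scaling, 1 with quantile normalization before the filter, 4 with detection in 1 group, 0 without filter, 1 with over 50% of spots, 0 after normexp, 1 in the deposited values, 1 with the sum of median spot signals and 0 to 4 with an array left out. With the replicate number as a block, 6 miRNAs and 1 list member were called and the standard errors of the arms were 0.19 and 0.20. Arrays with the same number deviated from their group means with correlations of -0.18, 0.11 and 0.03, and not every array correlated best with its own number. Deviations within a group depend on each other, so this check cannot decide whether the numbers pair the livers. The labels do not say that they do.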
